A study of Mus musculus with 6 samples.

Results

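The NF-κB subunits and their IκB inhibitors were compared at the mRNA level between mouse acute myeloid leukemia (AML) cells with a blood-specific deletion of *Phf6* (*VC Phf6,RE9a*) and cells without it (*WT Phf6,RE9a*). The members were the 5 REL family subunits (*Nfkb1*, *Nfkb2*, *Rel*, *Rela* and *Relb*) and 5 genes of the IκB family (*Nfkbia*, *Nfkbib*, *Nfkbie*, *Nfkbiz* and *Bcl3*), taken by gene name from a table of 54532 genes. All 10 were found, and all 10 had enough counts to be tested among 14169 genes. The leukemia cells of both groups expressed RUNX1-ETO9a (RE9a), a short form of the t(8;21) fusion protein, from a retrovirus that also carries GFP, and GFP+ cells were sorted from bone marrow. *WT Phf6,RE9a* cells carried the floxed *Phf6* allele without Cre (Phf6 fl/y, replicates 1, 2 and 3), and *VC Phf6,RE9a* cells carried the same allele with Vav1-Cre, a recombinase active throughout the blood system (Vav1-Cre;Phf6 fl/y, replicates 11, 12 and 13). The study made the leukemias by infecting fetal liver cells and passing them through male recipients, and the time at which these cells were taken is not given in the sources used here. Nothing says whether the 3 libraries of a group came from different leukemias, so the p-values measure the spread between these libraries, which may be technical.

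NF-κB is a family of dimeric transcription factors that sits in the cytoplasm bound to IκB proteins until the IκB kinase (IKK) complex marks the inhibitor for destruction. *Rela* (p65), *Rel* (c-Rel) and *Relb* encode the subunits with an activation domain, while *Nfkb1* and *Nfkb2* encode the precursors p105 and p100, whose own IκB-like repeats are removed to leave p50 and p52. *Nfkbia*, *Nfkbib* and *Nfkbie* encode the classical cytoplasmic inhibitors IκBα, IκBβ and IκBε. *Nfkbiz* (IκBζ) and *Bcl3* encode nuclear members of the same family that bind p50 or p52 homodimers and act as coregulators. Several of these genes are themselves known targets of NF-κB, *Nfkbia* being the textbook negative feedback loop.

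Most members were lower in *VC Phf6,RE9a* cells when compared with *WT Phf6,RE9a* cells. The members were chosen with earlier results of these data known, so the counts below are no independent test of the family. Of the 10 genes, 7 were lower and 0 were higher at a threshold of 0.05 (quasi-likelihood test of edgeR, p adjusted by Benjamini-Hochberg over all genes tested), where 22.7% of all genes tested were lower and 21.5% were higher. Every *VC Phf6,RE9a* library lay below every *WT Phf6,RE9a* library for 8 of the 10 members, all but *Rela* and *Bcl3*, and for 28.4% of all genes tested. The decreases of *Rel* and *Nfkbiz* were over 4-fold, as were 5.23% of all genes tested. The median log2 fold change over the members was -0.97, and it was 0.01 over all genes tested. It was -0.94 over the REL family (4 of 5 lower) and -1.14 over the IκB family (3 of 5 lower). The changes inside the family were unequal, from a 12.7-fold decrease of *Rel* to a *Bcl3* level whose libraries overlapped between the groups.

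**Figure D1:**
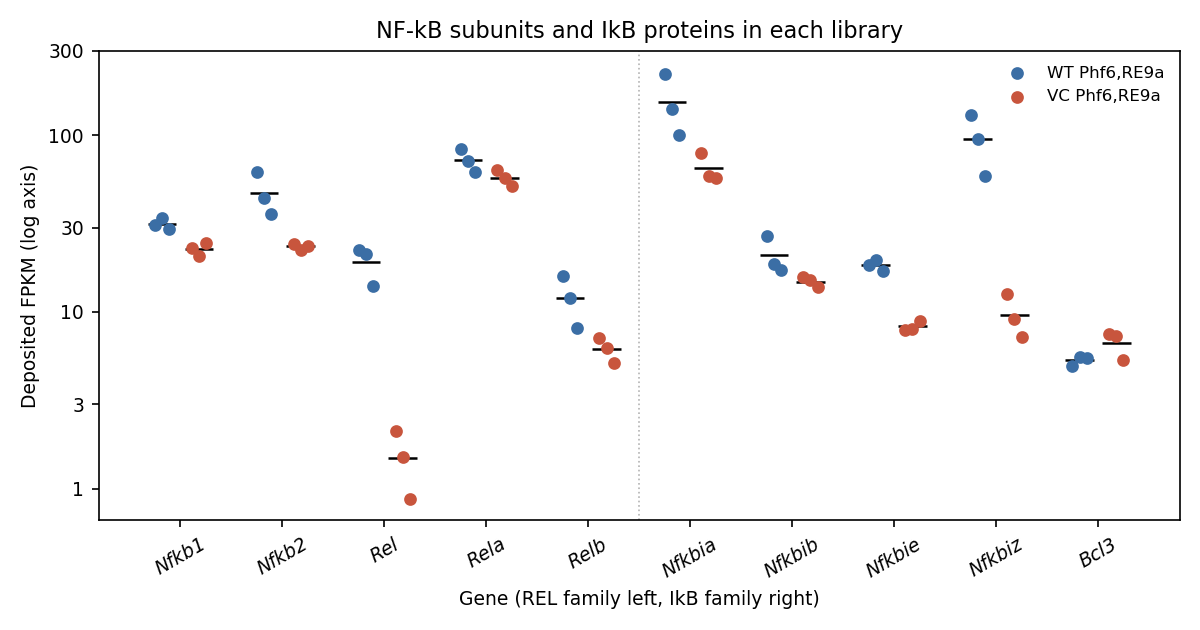
Deposited FPKM (fragments per kilobase of gene, scaled for depth, log axis) of each member in each library, with blue points for the 3 *WT Phf6,RE9a* libraries, red points for the 3 *VC Phf6,RE9a* libraries and a bar at each group's mean. The points of *Rel* and *Nfkbiz* are the farthest apart between groups, while those of *Rela* and *Bcl3* overlap.

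*Phf6*, the targeted gene on chromosome X (52912266 to 52956943), had FPKM of 9.76, 8.01 and 9.84 in *WT Phf6,RE9a* libraries and 3.26, 2.61 and 2.78 in *VC Phf6,RE9a* libraries. All *VC Phf6,RE9a* libraries lay below all *WT Phf6,RE9a* libraries, with a log2 fold change of -1.66 (SE 0.13, adjusted p = 9.32e-05). Library totals ran from 15675358 to 16817994 counts. TMM scaling factors were 0.917 to 0.991 in *WT Phf6,RE9a* and 1.04 to 1.07 in *VC Phf6,RE9a* libraries. Scaling by total counts alone moved the median log2 fold change of all genes to 0.16 and the calls to 2474 lower and 4048 higher genes, against 3213 lower and 3047 higher with TMM, and the same 7 members were counted as lower.

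The start regions of the members are described by the motifs their sequence holds, with no measurement of binding. RefSeq (GRCm38.p6) windows of 300 bases, from 250 before to 50 after a start, were at hand for 7 of the 10 members, and none was given for *Nfkb1*, *Nfkbiz* and *Relb*. The NF-κB consensus (a κB site of 10 bases, searched on both strands) occurred in 5 of these 7 members, *Rel*, *Nfkb2*, *Nfkbia*, *Nfkbie* and *Bcl3*, and not in *Rela* or *Nfkbib*. Of 27025 genes with a window, 5.14% held it in any window, as did 6.19% of the 9719 tested genes with one. Counted by window it was in 7 of 9 of the members and in 4.51% of all 32851, and 2 of the *Nfkb2* windows overlap and share a match. TGNGGT, a RUNX motif, was searched on both strands because RE9a holds the DNA-binding part of RUNX1, and it was found in 3 of the 7 members (*Nfkbia*, *Nfkbib* and *Rel*) and in 49.1% of all genes with a window. A match describes these letters only, and the part of such sites in the members' differences was not tested. The 150 bases from 120 before to 30 after the start are printed for the 5 genes with a match and for *Rela*, which has none, with matches to the NF-κB consensus in capitals. *Rel* and *Nfkb2* each hold 1 stretch of 11 capitals, in which matches overlap. *Nfkb2* has 3 annotated starts with a match in each window, and the first is shown.
Rel: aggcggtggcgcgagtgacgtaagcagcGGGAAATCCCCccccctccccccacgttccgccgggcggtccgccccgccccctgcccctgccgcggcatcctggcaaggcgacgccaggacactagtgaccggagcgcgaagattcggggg
Nfkb2: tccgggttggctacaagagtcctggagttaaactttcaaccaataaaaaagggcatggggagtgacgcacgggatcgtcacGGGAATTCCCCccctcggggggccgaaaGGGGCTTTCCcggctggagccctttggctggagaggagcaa
Nfkbia: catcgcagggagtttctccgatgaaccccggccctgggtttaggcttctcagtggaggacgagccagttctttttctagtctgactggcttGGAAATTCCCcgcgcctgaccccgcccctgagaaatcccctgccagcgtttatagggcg
Nfkbie: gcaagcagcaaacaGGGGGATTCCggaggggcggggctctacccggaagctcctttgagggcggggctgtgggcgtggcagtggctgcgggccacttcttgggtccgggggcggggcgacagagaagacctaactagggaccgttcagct
Bcl3: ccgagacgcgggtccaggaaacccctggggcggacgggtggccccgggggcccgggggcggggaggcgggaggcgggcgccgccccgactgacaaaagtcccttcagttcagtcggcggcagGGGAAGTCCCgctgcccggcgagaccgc
Rela: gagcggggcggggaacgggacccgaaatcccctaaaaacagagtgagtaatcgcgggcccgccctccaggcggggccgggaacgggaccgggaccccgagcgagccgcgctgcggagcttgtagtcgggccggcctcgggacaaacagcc
The windows lie at chr11:23770940-23771089 (minus strand) for *Rel*, chr19:46304617-46304766 (plus) for *Nfkb2*, chr12:55492618-55492767 (minus) for *Nfkbia*, chr17:45555580-45555729 (plus) for *Nfkbie*, chr7:19822726-19822875 (minus) for *Bcl3* and chr19:5637421-5637570 (plus) for *Rela*. Relative to the start, the match lay at -92 to -82 in *Rel*, at -39 to -29 and -11 to -2 in *Nfkb2*, at -29 to -20 in *Nfkbia*, at -106 to -97 in *Nfkbie* and at 3 to 12 after the start in *Bcl3*. The GC content of the full windows ran from 56.3% (*Nfkbib*) to 75% (*Rel*), above the median of 52.7% over all windows.

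Among the REL subunits that carry an activation domain, *Rel* fell furthest. *Rel* encodes c-Rel, a subunit used mainly in blood cells, and lies on chromosome 11 from 23736847 to 23770970 (minus strand, GRCm38, as all gene positions here). Its FPKM was 22.5, 21.3 and 13.96 in the 3 *WT Phf6,RE9a* libraries and 2.11, 1.52 and 0.875 in the 3 *VC Phf6,RE9a* libraries, from 1741 to 2592 and from 112 to 270 counts. All 3 *VC Phf6,RE9a* libraries lay far below all 3 *WT Phf6,RE9a* libraries. The mean went from 19.3 ± 4.64 to 1.5 ± 0.616 FPKM (SD, n = 3), a log2 fold change of -3.67 (SE 0.32, adjusted p = 0.000145). By mean FPKM *Rel* was the fourth lowest member in *WT Phf6,RE9a* cells and the lowest in *VC Phf6,RE9a* cells.

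*Rela* encodes p65, the activating subunit of the classical p50:p65 dimer, and lies on chromosome 19 from 5637483 to 5648130 (plus strand). Its FPKM was 83.3, 70.9 and 61.7 in *WT Phf6,RE9a* libraries and 63.8, 57.1 and 51.6 in *VC Phf6,RE9a* libraries. The highest *VC Phf6,RE9a* library lay above the lowest *WT Phf6,RE9a* library. Its mean was 72.0 ± 10.8 and 57.5 ± 6.09 FPKM, with a log2 fold change of -0.31 (SE 0.13, adjusted p = 0.0807). *Rela* thus did not pass the threshold, and without *WT Phf6,RE9a* replicate 3 it did (log2 fold change -0.42, adjusted p = 0.0273). Over the 13 alternative fits its adjusted p ran from 0.0273 to 0.278.

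*Relb* encodes the activating subunit of the alternative pathway, which pairs with p52, and lies on chromosome 7 from 19606217 to 19629438 (minus strand). Its FPKM was 15.96, 11.95 and 8.11 in *WT Phf6,RE9a* libraries and 7.15, 6.27 and 5.13 in *VC Phf6,RE9a* libraries. The groups did not overlap, although *WT Phf6,RE9a* replicate 3 was closer to the *VC Phf6,RE9a* libraries than to *WT Phf6,RE9a* replicate 2. *Relb* went from 12 ± 3.93 to 6.19 ± 1.01 FPKM (log2 fold change -0.94, SE 0.24, adjusted p = 0.0149). Without *VC Phf6,RE9a* replicate 13, the library with the lowest *Relb* level, the adjusted p was 0.0504, and over the 13 alternative fits it ran from 0.00071 to 0.0504.

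The precursor subunits were both lower. *Nfkb2*, which encodes p100 and p52, lies on chromosome 19 from 46304737 to 46312090 (plus strand) and shares 4 bases of its gene span with *Psd* on the other strand. Its FPKM was 61.7, 44.2 and 35.9 in *WT Phf6,RE9a* libraries and 24.3, 22.5 and 23.7 in *VC Phf6,RE9a* libraries. The *WT Phf6,RE9a* libraries were spread 1.72-fold from lowest to highest, the *VC Phf6,RE9a* libraries 1.08-fold, and the groups were well apart. *Nfkb2* went from a mean of 47.2 ± 13.2 to 23.5 ± 0.938 FPKM (log2 fold change -0.997, SE 0.18, adjusted p = 0.00357).

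*Nfkb1*, which encodes p105 and p50, lies on chromosome 3 from 135584655 to 135691547 (minus strand) and contains *Gm43430* on the same strand, whose own counts were 15 to 39 per library. *Nfkb1* had FPKM of 31.0, 34.1 and 29.4 in *WT Phf6,RE9a* libraries and 22.9, 20.7 and 24.6 in *VC Phf6,RE9a* libraries. The groups did not overlap, and the difference was the smallest of the 7 decreases. The mean went from 31.5 ± 2.40 to 22.7 ± 1.97 FPKM, a log2 fold change of -0.46 (SE 0.10, adjusted p = 0.00914) that passed the threshold in all 13 alternative fits.

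The make-up of the subunit pool was compared as each gene's share of the summed FPKM of the 5 subunits within a library. *Rel* made up 10.5%, 11.7% and 9.37% of this sum in *WT Phf6,RE9a* libraries and 1.75%, 1.41% and 0.826% in *VC Phf6,RE9a* libraries. *Rela* made up 38.8%, 38.9% and 41.4% in *WT Phf6,RE9a* and 53.0%, 52.9% and 48.7% in *VC Phf6,RE9a* libraries. In both cases the groups did not overlap, so p65 mRNA took a larger part of a smaller pool although *Rela* itself did not pass the threshold. The shares restate the FPKM given above, and the share of a gene rises when the others fall. The sum went from 182 ± 32.7 to 111 ± 7.71 FPKM. The *Rela* difference of 11.8 percentage points was 7.53 when CPM was not divided by gene length, which weights long genes more.

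The share of *Nfkb2* went from 25.7 ± 2.67% to 21.1 ± 1.13%, without overlap. *Nfkb2* and *Relb* together, the subunits of the alternative pathway, went from 32.2 ± 3.56% to 26.7 ± 0.546%, also without overlap. The shares of *Nfkb1* (17.6 ± 2.77% and 20.5 ± 2.39%, p = 0.4) and *Relb* (6.48 ± 1.00% and 5.53 ± 0.6%, p = 0.3) overlapped between the groups in an exact two-sided permutation test. For *Rel*, *Rela* and *Nfkb2* the exact permutation p was 0.1, the smallest that 3 against 3 libraries can give (0.167 adjusted over the 5 subunits), so this design cannot reach 0.05. These smaller differences depended on the scale and on single libraries. On CPM not divided by length the *Nfkb1* share no longer overlapped (8.88 percentage points higher, against 2.86 on FPKM), and the differences were -2.45 for *Nfkb2* (-4.55 on FPKM), -0.55 for *Relb* (-0.94) and -3.00 for both together (-5.49). Without *WT Phf6,RE9a* replicate 1 they were 1.29 for *Nfkb1*, -3.01 for *Nfkb2*, -0.46 for *Relb* and -3.47 for *Nfkb2* with *Relb*. Without *VC Phf6,RE9a* replicate 13 the difference was 1.48 for *Nfkb1* and -0.60 for *Relb*, and without *WT Phf6,RE9a* replicate 3 it was -1.46 for *Relb*.

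**Figure D2:**
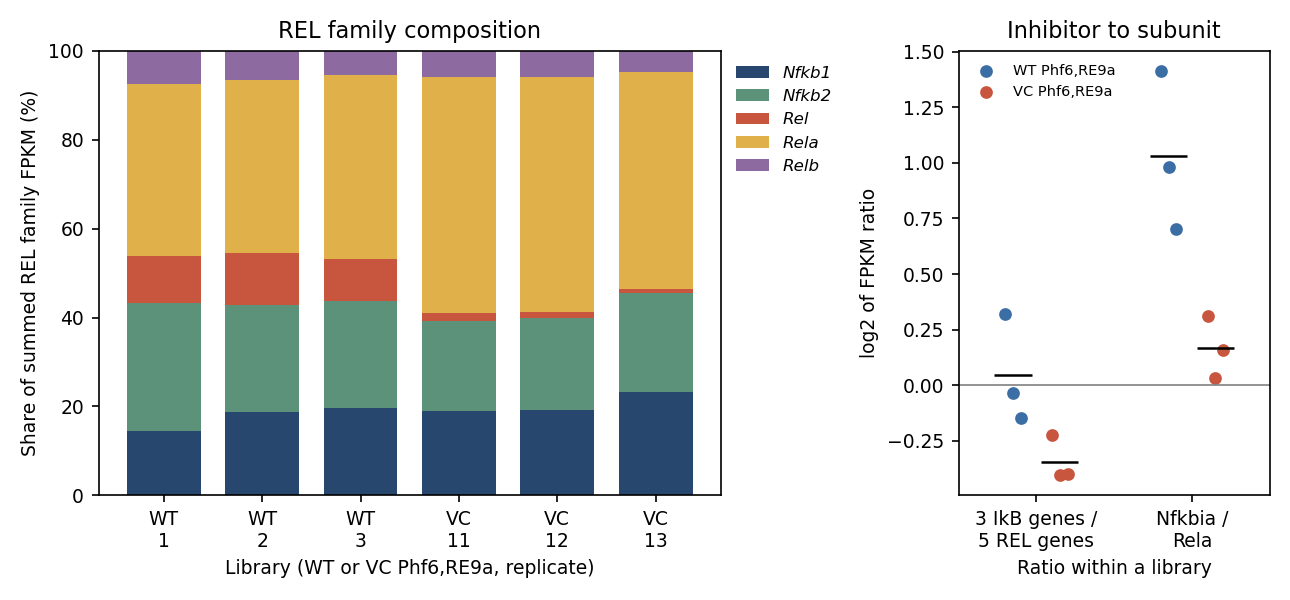
Left, the share (%) of each REL family gene in the summed FPKM of the 5 genes, as stacked bars for each library. Right, log2 of the FPKM ratio of summed *Nfkbia*, *Nfkbib* and *Nfkbie* to the 5 subunits and of *Nfkbia* to *Rela*, as points per library with bars at the group means. The *Rel* share is 9.37% or more in every *WT Phf6,RE9a* library and 1.75% or less in every *VC Phf6,RE9a* library, and both ratios are lower in every *VC Phf6,RE9a* library.

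Among the cytoplasmic inhibitors, *Nfkbia* and *Nfkbie* were lower. *Nfkbia*, which encodes IκBα, lies on chromosome 12 from 55489410 to 55492647 (minus strand) and had the highest mean FPKM of the members in both groups. Its FPKM was 221.9, 140.2 and 100.5 in *WT Phf6,RE9a* libraries and 79.1, 58.5 and 57.5 in *VC Phf6,RE9a* libraries. The *WT Phf6,RE9a* libraries differed 2.21-fold among themselves, yet each lay above each *VC Phf6,RE9a* library. The mean went from 154 ± 61.9 to 65.0 ± 12.2 FPKM (log2 fold change -1.23, SE 0.27, adjusted p = 0.0086).

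*Nfkbie*, which encodes IκBε, lies on chromosome 17 from 45555703 to 45563169 (plus strand). Its FPKM was 18.5, 19.6 and 17.0 in *WT Phf6,RE9a* libraries and 7.92, 8.05 and 8.89 in *VC Phf6,RE9a* libraries. Its libraries agreed closely, within 1.16-fold (*WT Phf6,RE9a*) and 1.12-fold (*VC Phf6,RE9a*). On average *Nfkbie* went from 18.4 ± 1.33 to 8.29 ± 0.523 FPKM (log2 fold change -1.14, SE 0.10, adjusted p = 0.000159).

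*Nfkbib*, which encodes IκBβ, lies on chromosome 7 from 28758251 to 28767512 (minus strand). Its FPKM was 27.0, 18.6 and 17.2 in *WT Phf6,RE9a* libraries and 15.7, 15.1 and 13.8 in *VC Phf6,RE9a* libraries. The groups did not overlap, but the gap between them was small beside the spread of the *WT Phf6,RE9a* libraries. Means were 20.9 ± 5.32 and 14.9 ± 0.978 FPKM (log2 fold change -0.48, SE 0.17, adjusted p = 0.0529), just short of the threshold. It passed with DESeq2 (adjusted p = 0.0397), with no count filter (0.0377) and without *WT Phf6,RE9a* replicate 2 (0.0438) or 3 (0.0249), in 4 of 13 alternative fits that ranged from 0.0249 to 0.142. *Nfkbib* shares 778 bases with *Sirt2* (1058 to 1927 counts) on the other strand, and whether the counting used strand is not given in the sources used here.

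Inhibitor mRNA was set against subunit mRNA within each library. The summed FPKM of *Nfkbia*, *Nfkbib* and *Nfkbie* went from 193 ± 67.6 to 88.2 ± 12.6. The log2 ratio of this sum to that of the 5 subunits was 0.32, -0.03 and -0.15 in *WT Phf6,RE9a* libraries and -0.23, -0.40 and -0.40 in *VC Phf6,RE9a* libraries. The log2 ratio of *Nfkbia* to *Rela* was 1.41, 0.98 and 0.70 in *WT Phf6,RE9a* libraries and 0.31, 0.03 and 0.16 in *VC Phf6,RE9a* libraries. Every *VC Phf6,RE9a* library lay below every *WT Phf6,RE9a* library for both ratios (exact permutation p = 0.1 each, the smallest possible). For the summed ratio this did not hold on CPM not divided by length, where the groups overlapped (difference -0.31, exact permutation p = 0.2), and without *WT Phf6,RE9a* replicate 1 the difference was -0.25 in place of -0.39. The difference for *Nfkbia* to *Rela* was -0.87, and -0.68 without *WT Phf6,RE9a* replicate 1.

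Of the nuclear IκB genes, *Nfkbiz* was lower and *Bcl3* did not pass the threshold. *Nfkbiz*, which encodes IκBζ, a coregulator of a subset of inflammatory genes such as *Il6*, lies on chromosome 16 from 55811375 to 55838899 (minus strand). Its FPKM was 129.7, 95.4 and 58.5 in *WT Phf6,RE9a* libraries and 12.6, 9.16 and 7.21 in *VC Phf6,RE9a* libraries, from 4900 to 10026 and from 620 to 1081 counts. Even the lowest *WT Phf6,RE9a* library was several times above the highest *VC Phf6,RE9a* library. The mean went from 94.5 ± 35.6 to 9.64 ± 2.71 FPKM, a 9.73-fold decrease (log2 fold change -3.28, SE 0.32, adjusted p = 0.000232). In order of mean FPKM *Nfkbiz* was next to *Nfkbia* at the top of the members in *WT Phf6,RE9a* cells and below *Nfkbib* in *VC Phf6,RE9a* cells.

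*Bcl3*, which encodes a coregulator of p50 and p52 homodimers, lies on chromosome 7 from 19808462 to 19822770 (minus strand). Its FPKM was 4.93, 5.57 and 5.49 in *WT Phf6,RE9a* libraries and 7.46, 7.27 and 5.37 in *VC Phf6,RE9a* libraries. Replicates 11 and 12 of *VC Phf6,RE9a* cells lay above all *WT Phf6,RE9a* libraries and replicate 13 lay among them. The mean was 5.33 ± 0.350 and 6.70 ± 1.16 FPKM (log2 fold change 0.34, SE 0.17, adjusted p = 0.144), and it passed the threshold in 0 of 13 alternative fits. *Bcl3* and *Relb* lie 179023 bases apart on chromosome 7. Of the 13 genes between them 5 were tested, and 0 were lower and 4 higher (median log2 fold change 0.93), where 21.5% of all genes tested were higher. A change of the region as a whole was not tested. *Bcl3* also spans the opposite-strand genes *Gm16174* (3 to 20 counts) and *Gm16175* (0 to 1 counts).

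**Figure D3:**
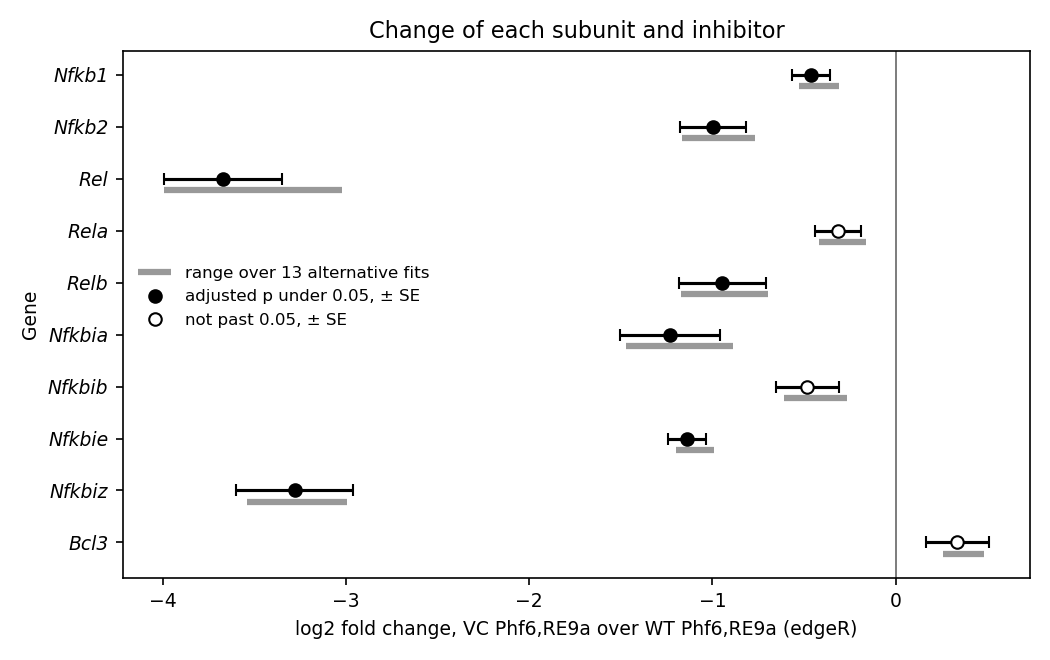
Log2 fold change of each member (*VC Phf6,RE9a* over *WT Phf6,RE9a*, edgeR) as points with bars of 1 SE, filled where the adjusted p is under 0.05, above grey bars that span 13 alternative fits. The points run from -3.67 (*Rel*) to 0.34 (*Bcl3*), and no grey bar crosses 0.

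The order of levels within a group was set by mean FPKM. In *WT Phf6,RE9a* cells it was *Nfkbia*, *Nfkbiz*, *Rela*, *Nfkb2*, *Nfkb1*, *Nfkbib*, *Rel*, *Nfkbie*, *Relb* and *Bcl3*, and the libraries of neighbours overlapped between *Nfkbia* and *Nfkbiz*, *Nfkbiz* and *Rela*, *Nfkbib* and *Rel*, and *Rel* and *Nfkbie*. In *VC Phf6,RE9a* cells it was *Nfkbia*, *Rela*, *Nfkb2*, *Nfkb1*, *Nfkbib*, *Nfkbiz*, *Nfkbie*, *Bcl3*, *Relb* and *Rel*, with overlap between *Nfkbia* and *Rela*, *Nfkb2* and *Nfkb1*, *Nfkbiz* and *Nfkbie*, and *Bcl3* and *Relb*.

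Libraries of a group also differed in step across the members. Replicate 1 had the highest FPKM of the *WT Phf6,RE9a* libraries for 7 of the 10 members and replicate 3 the lowest for 9. Replicate 11 had the highest of the *VC Phf6,RE9a* libraries for 8 members and replicate 13 the lowest for 7. A list of 8 immediate-early genes (such as *Fos* and *Jun*, which respond to stress and handling within minutes), added after these data were seen, showed a like pattern in its sum. Its summed FPKM was 11591, 10745 and 7592 in *WT Phf6,RE9a* and 5565, 3769 and 3687 in *VC Phf6,RE9a* libraries. Of the 8 genes 5 were lower and 0 higher, beside 22.7% and 21.5% of all genes tested. *Jun* did not follow the sum, with FPKM of 1863, 839 and 865 in *WT Phf6,RE9a* and 993, 514 and 722 in *VC Phf6,RE9a* libraries. The part of the immediate-early genes in the members' differences was not tested.

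Marker genes of several blood cell types moved with genotype as well, where 22.7% of all genes tested were lower and 21.5% higher. Of 8 mast cell and basophil genes 7 were lower (summed FPKM 5362 to 8025 in *WT Phf6,RE9a* and 1052 to 1235 in *VC Phf6,RE9a* libraries). *Cpa3* held 3377 to 5350 and 103 to 256 FPKM of these sums. All 8 neutrophil genes were higher (178 to 531 against 1112 to 4323), as were all 8 erythroid genes (1760 to 2730 against 5632 to 6615). Macrophage and dendritic cell genes (1 of 8 tested higher) summed to 6.51 to 11.6 and 17.2 to 20.9 FPKM, B cell genes (5 of 5 tested higher) to 0.446 to 1.18 and 5.28 to 12.2, and T cell genes (1 of 1 tested higher) to 0.365 to 0.706 and 2.56 to 3.74. At such low *WT Phf6,RE9a* levels a B or T cell gene can pass the count filter through the *VC Phf6,RE9a* libraries alone. The counts of higher genes in these 2 lists are therefore no evidence of their own. Of 8 genes of immature leukemia cells, 2 were lower and 4 higher (median log2 fold change 1.37). Their summed FPKM was 350 to 495 in *WT Phf6,RE9a* against 171 to 265 in *VC Phf6,RE9a* libraries. *Kit*, also in the mast cell and basophil list, held 208 to 301 and 24.1 to 39.2 FPKM of these sums. No gene of these lists was at 0 in all libraries of a group. In bulk RNA, fewer cells of a type and less RNA per cell cannot be told apart, and the part of cell makeup in the members' differences was not tested.

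Beyond the members, 113 genes of the NF-κB pathway were grouped by role into 9 lists. Of the 100 tested, 40 were lower and 15 higher (median log2 fold change -0.22), beside 22.7% and 21.5% of all genes tested. The lists too were chosen with earlier results of these data known, so these counts are no independent test of the pathway. Fold changes below compare *VC Phf6,RE9a* with *WT Phf6,RE9a* cells on the log2 scale, with adjusted p from edgeR.

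Upstream of the inhibitors, 4 of 12 IKK and upstream kinase genes were lower and 1 was higher (median -0.31). *Ikbkb*, the catalytic kinase of the classical pathway, went from 9.08 ± 1.58 to 6.02 ± 0.151 FPKM (-0.58, adjusted p = 0.00742). The TAK1 partners moved in opposite directions, with *Tab2* lower (-0.54, adjusted p = 0.00113) and *Tab1* higher (0.80, adjusted p = 0.000774). Of 21 receptor adaptors tested, 7 were lower and 3 higher (median -0.01). The NOD receptor kinase *Ripk2* fell from 4.71 ± 0.295 to 0.867 ± 0.205 FPKM (-2.43, adjusted p = 0.000194). *Malt1*, the protease of the CARD–BCL10–MALT1 complex (-1.18, adjusted p = 0.00146), and *Traf1* (-1.39, adjusted p = 0.00249) were lower too. *Rbck1*, a subunit of the linear ubiquitin ligase and the adaptor with the highest level, was 42.6 ± 2.38 and 45.7 ± 1.15 FPKM (adjusted p = 0.28).

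Of 7 genes of the IκB ubiquitin ligase and of p105 processing, 4 were higher and 0 lower (median 0.30). *Btrc*, the F-box protein that recognises phosphorylated IκB, rose from 7.46 ± 0.583 to 16.1 ± 1.5 FPKM (1.12, adjusted p = 0.000197). *Rbx1*, the RING subunit (0.72, adjusted p = 0.000996), and *Ubac1*, a subunit of the ligase that processes p105 (0.76, adjusted p = 0.00283), were also higher. *Skp1a* was 46.0 ± 5.31 and 48.2 ± 2.37 FPKM (adjusted p = 0.58). Among 4 IκB-like and IκB-binding genes, *Nfkbid*, which encodes the nuclear IκBNS, was lower in all 3 *VC Phf6,RE9a* libraries, at 170, 79.2 and 94.9 FPKM in *WT Phf6,RE9a* and 16.2, 15.9 and 11.9 FPKM in *VC Phf6,RE9a* libraries (-2.96, adjusted p = 0.000237). *Nkiras2*, whose protein binds IκB and slows its loss, was higher (0.95, adjusted p = 0.0003).

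Of 12 feedback inhibitors tested, 6 were lower and 1 higher (median -0.18). *Zfp36*, which destabilises cytokine mRNA, went from 824 ± 179.9 to 228 ± 66.9 FPKM (-1.84, adjusted p = 0.000944). *Tnip2* (-0.98, adjusted p = 0.000571) and *N4bp1* (-0.54, adjusted p = 0.00166), which restrain signalling to NF-κB, were lower. Of 14 nuclear cofactors and import genes 6 were lower and 2 higher (median -0.25). *Kpna3*, an importin that carries NF-κB into the nucleus (-0.90, adjusted p = 0.000648), *Cdk9* (-0.39, adjusted p = 0.00364) and *Sirt1* (-0.50, adjusted p = 0.00413) were lower. *Hdac1* was higher (0.29, adjusted p = 0.0203).

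Of 13 cytokine targets tested, 7 were lower and 0 higher (median -1.69, unchanged with *Lta* at its bound). *Il6* went from 12.2 ± 1.56 to 0.343 ± 0.195 FPKM (-5.13, adjusted p = 7.22e-05), *Tnf* from 26.8 ± 10.5 to 1.26 ± 0.596 FPKM (-4.39, adjusted p = 0.000198) and *Ccl4* from 61.1 ± 40.4 to 2.73 ± 2.23 FPKM (-4.46, adjusted p = 0.00165). *Lta* had 31 to 40 counts in *WT Phf6,RE9a* and 0 to 1 in *VC Phf6,RE9a* libraries. Its *WT Phf6,RE9a* mean FPKM lay at least 13.2-fold above a floor of 3 counts in a *VC Phf6,RE9a* library. *Lta* passed the count filter through the *WT Phf6,RE9a* libraries alone, as may others low in *VC Phf6,RE9a* cells, such as *Il6* (5 to 20 counts there). Such genes could hardly be called higher, so the split of this list is no evidence of its own. With at least 10 counts in every library, 4 cytokine targets were lower and 0 higher. Of 9 survival targets tested, 5 were lower and 0 higher (median -0.35). *Bcl2* went from 4.04 ± 1.06 to 0.161 ± 0.0238 FPKM (-4.63, adjusted p = 2.84e-05), and *Ier3* (-1.38, adjusted p = 0.000341) and *Gadd45b* (-2.20, adjusted p = 0.000513) were lower.

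Surface targets were mixed, with 4 lower and 3 higher of 8 tested (median 0.05, unchanged with *Tnfrsf9* at its bound). *Tnfrsf9*, the receptor 4-1BB, had 258 to 411 counts in *WT Phf6,RE9a* and 0 to 1 in *VC Phf6,RE9a* libraries. Its *WT Phf6,RE9a* mean FPKM lay at least 125-fold above the same floor. *Tnfrsf9* too passed the count filter through the *WT Phf6,RE9a* libraries alone. With at least 10 counts in every library, 3 surface targets were lower and 3 higher. The protease *Plau* was lower (-4.79, adjusted p = 0.000313) while its receptor *Plaur* was higher (1.82, adjusted p = 0.00111). *Cd44* went from 26.7 ± 2.51 to 21.5 ± 1.31 FPKM (-0.31, adjusted p = 0.0317). The 13 pathway genes with too few counts to test were *Ticam2*, *Tnip3*, *Il12b*, *Csf2*, *Cxcl1*, *Bcl2a1a*, *Bcl2a1b*, *Bcl2a1d*, *Cd40*, *Cd83*, *Cd86*, *Sele* and *Ccr7*.

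**Figure D4:**
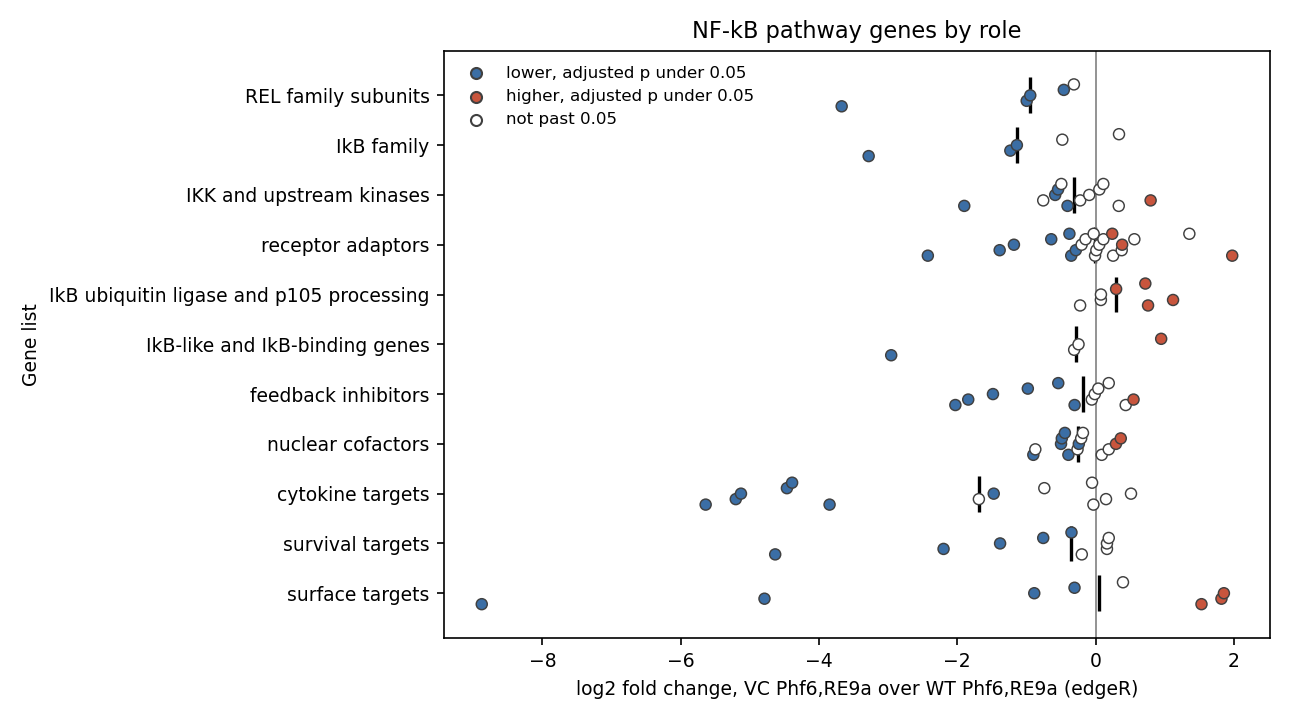
Log2 fold change (*VC Phf6,RE9a* over *WT Phf6,RE9a*, edgeR) of every tested gene in the 2 member families and the 9 pathway lists, blue where lower and red where higher at an adjusted p under 0.05, with a black bar at each list's median. The medians run from -1.69 for cytokine targets to 0.30 for the IκB ubiquitin ligase and p105 processing list. The point farthest left is *Tnfrsf9*, whose fitted value depends on the prior count because its *VC Phf6,RE9a* libraries had 0 to 1 counts.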

How the data were processed

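RNA-sequencing of GFP+ leukemia cells sorted from mouse bone marrow (3 libraries per genotype) was analysed from the deposited table of genes. RNA was extracted with Trizol, and libraries were made with the Illumina TruSeq kit and read in pairs. The deposited counts are whole reads per gene that the authors did not normalize. They stand beside FPKM values that the authors computed from them with gene length and a scaled library size. The submitters' processing notes name Bowtie 0.12.0 and build mm8, yet the deposited gene positions are of GRCm38, as 54495 of 54532 identifiers were in GENCODE M21 with start and end identical for 98.33% of those. This held for 9 of the 10 members and not for *Nfkb2*, given here as deposited. The counting tool and strandedness are not given in the sources used here. The deposited comparison columns (from DESeq2: group means, fold changes, p-values) were not used.

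Counts were filtered (filterByExpr), scaled by TMM and compared with edgeR 4.0.16 in R 4.3.3 (quasi-likelihood test). P-values were adjusted by Benjamini-Hochberg across 14169 genes, at a threshold of 0.05. The SE was derived as the size of the log2 fold change over the root of its F statistic. Shares and ratios used deposited FPKM and exact permutation tests in scipy 1.17.1. Levels of different genes were compared in FPKM, and in CPM only where named. Chi-square per gene between replicates was 11.9 to 46.8, beyond sampling noise. The fits were tested on simulated data. Alternatives were DESeq2 1.42.0, RLE size factors, total counts only, a minimum of 10 counts per library, no filter on counts, limma 3.58.1 on log2(FPKM + 1) and log2(FPKM + 0.1), a threshold of 0.01 and each library left out in turn. Bounds set the *WT Phf6,RE9a* mean FPKM over a fixed floor of 3 counts in a *VC Phf6,RE9a* library and model no spread between libraries. The reads carry no molecular identifiers, so error from duplicate reads is not in the bounds. The members and lists were chosen with earlier results of these data known. Named genes were the members, *Phf6* and, in each pathway list, up to 3 genes with the smallest p among those past the threshold and the gene with the highest mean FPKM. Marker lists were given by counts and summed levels. *Kit* was named because it is in both the mast cell and the immature leukemia cell list, and *Cpa3* for its large part of a sum.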

Additional observations from a re-analysis of the deposited data

How the results depend on the processing

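No member changed direction in any of the 13 alternative fits, and between 6 and 9 members were lower when 1 library was left out. *Nfkbib* became lower with DESeq2 and with no count filter (log2 fold change -0.49 in each). When each library was left out, log2 fold changes spanned -0.61 to -0.27 for *Nfkbib* (past the threshold without *WT Phf6,RE9a* replicate 2 or 3), -0.42 to -0.21 for *Rela* (past it without *WT Phf6,RE9a* replicate 3) and -1.17 to -0.70 for *Relb* (short of it without *VC Phf6,RE9a* replicate 13). *Rel* was at -3.02 in limma on log2(FPKM + 1), where the pseudocount shrinks low values. At an adjusted p under 0.01, 6 members were lower. With total counts only, 23 pathway genes were higher in place of 15, with 6 in place of 3 receptor adaptors higher and 4 in place of 7 lower, 2 in place of 1 feedback inhibitors higher and 2 in place of 0 survival targets higher. With at least 10 counts in every library 4 in place of 7 cytokine targets were lower, as fewer were tested. With 1 library left out, 1 in place of 2 nuclear cofactors was higher without *WT Phf6,RE9a* replicate 1 or any one *VC Phf6,RE9a* library, 5 in place of 3 surface targets were higher without *VC Phf6,RE9a* replicate 13, and 1 in place of 0 ligase genes was lower without *WT Phf6,RE9a* replicate 2. All shares and ratios kept their direction, but the differences in the shares of *Nfkb1*, *Nfkb2*, *Relb*, *Rela* and *Nfkb2* with *Relb*, and in the summed inhibitor ratio, moved by over 1.5 times under the settings named beside them. Their tests cannot pass 0.05 with 3 libraries per group. No paired analysis was possible because the groups share 0 replicate numbers. Depth limits the fold changes of genes near 0 counts in a group, such as *Lta* and *Tnfrsf9*.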
